A study of Mus musculus with 2 samples.

Results

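Integrins and cadherins are the membrane proteins by which cells hold on to the matrix and to each other, and their genes are described here in 2 RNA-seq libraries of whole mouse uterus. The genes were taken by symbol: every integrin alpha and beta chain gene and every numbered cadherin gene listed in the deposited tables, without the endothelial cadherin gene Cdh5. This gave 52 of 20634 listed genes, made up of 18 alpha chain genes, 9 beta chain genes, 22 cadherin genes and 3 genes of integrin-binding proteins that share the symbol stem but encode no integrin (Itgb1bp1, Itgb1bp2 and Itgb3bp). Of the 52 genes, 30 were at 1 FPKM or more (fragments scaled to transcript length and to all mapped fragments) in either library and are compared below.

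One library was labelled Mettl3 f/f and the other Mettl3 ed/ed. Mettl3 is the enzyme of the RNA methyltransferase complex that makes N6-methyladenosine (m6A). Both libraries came from the whole uterus of females that were 6 to 8 weeks old at mating with fertile males and were killed on gestational day 4, the day of the vaginal plug being day 1. The labels define neither f nor ed, and give neither the promoter of a Cre transgene nor the number of animals behind each library. With 1 library per genotype no spread between animals could be estimated, so every difference below is between these 2 libraries and has no replicate check and no p-value. The RNA came from mixed cells, and in such samples fewer cells of a type and less RNA per cell cannot be told apart. Transcript and not protein was measured.

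An integrin is a pair of an alpha and a beta chain that spans the membrane, binds matrix or a counter-receptor outside and is tied to actin, or in the case of Itgb4 to keratin filaments, inside. The alpha chain largely sets which ligand is bound. Classical cadherins bind the same cadherin on the neighbouring cell in a calcium-dependent way and hold catenins at their inner tail. In the uterus at the time of implantation the luminal epithelium carries E-cadherin (Cdh1) at its lateral junctions, the stroma carries mesenchymal cadherins and fibronectin receptors, and leukocytes carry the beta 2 and beta 7 integrins.

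The steps between low values gave an estimated depth of 18000000 fragments in f/f against 17700000 in ed/ed. The level of Mettl3 itself, 10.6 against 10.2 FPKM, did not separate the labels. Epithelial marker genes summed to 2602 FPKM in f/f against 2547 in ed/ed, with 5 of 8 above a log2 ratio of 0. Stromal markers summed to 988 and 485 (0 of 8 above 0), endothelial markers to 147 and 59.0 (0 of 6) and smooth muscle markers to 338 and 541 (5 of 5). Leukocyte markers summed to 87.2 and 163 FPKM (6 of 6), macrophage markers to 141 and 285 (5 of 6) and T and NK cell markers to 13.2 and 15.8 (3 of the 4 at 1 FPKM or more). Neutrophil markers summed to 5.79 and 3.75 FPKM, mesothelial markers to 0.0910 and 0.757, and the 4 oviduct or ovary markers, nearly all of it Ovgp1, to 41.5 and 61.3. The part that these marker differences have in the results below was not tested.

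The promoter windows of 4 alpha chain genes of the stromal and muscle group are shown because they belong to members with opposite differences: Itga1 and Itga8 were lower in ed/ed, and Itga5 and Itga10 were higher. Each line gives the 250 bases before the RefSeq start (GRCm38.p6), read 5′ to 3′ on the strand of the gene. Capitals mark a match to any of 4 promoter motifs searched on both strands, the GC box GGGCGG, the E-box CACCTG, the TATA box TATAAA and the CCAAT box CCAAT, which did not overlap each other in these windows.
Itga1 (chr13:115101965-115102214, minus strand): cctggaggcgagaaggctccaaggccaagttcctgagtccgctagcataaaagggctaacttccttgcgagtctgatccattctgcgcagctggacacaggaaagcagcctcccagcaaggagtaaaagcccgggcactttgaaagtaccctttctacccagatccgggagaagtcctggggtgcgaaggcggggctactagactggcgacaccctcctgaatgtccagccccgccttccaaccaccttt
Itga8 (chr2:12301945-12302194, minus strand): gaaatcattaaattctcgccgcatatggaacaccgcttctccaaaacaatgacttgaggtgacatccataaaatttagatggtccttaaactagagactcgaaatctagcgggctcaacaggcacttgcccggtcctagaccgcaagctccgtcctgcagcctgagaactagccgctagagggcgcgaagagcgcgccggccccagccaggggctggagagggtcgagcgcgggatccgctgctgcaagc
Itga5 (chr15:103366792-103367041, minus strand): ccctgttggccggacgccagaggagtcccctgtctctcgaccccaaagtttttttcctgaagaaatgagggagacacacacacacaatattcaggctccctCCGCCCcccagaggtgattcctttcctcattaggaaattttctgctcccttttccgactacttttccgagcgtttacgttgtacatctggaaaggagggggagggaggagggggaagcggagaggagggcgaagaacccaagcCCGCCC
Itga10 (chr3:96645334-96645583, plus strand): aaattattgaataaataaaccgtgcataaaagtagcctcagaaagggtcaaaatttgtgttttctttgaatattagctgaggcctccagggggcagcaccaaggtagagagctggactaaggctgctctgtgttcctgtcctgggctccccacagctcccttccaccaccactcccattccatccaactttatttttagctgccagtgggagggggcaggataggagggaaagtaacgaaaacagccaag

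Only the Itga5 window held a match, with 2 GC boxes. Across all 32851 promoter windows of that length in the table, 32.7% held a GC box, 17.2% the E-box, 12.4% the TATA box and 33.8% a CCAAT box. No match says only that these letters are not in this window. Of the 30 members compared, 20 had an entry in the table, and Cdh1, Cdh2, Cdh4, Cdh11, Cdh13, Itga6, Itgal, Itgb2, Itgb3 and Itgb4 had none.

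Cdh1 (E-cadherin) and Itgb1 (the beta chain shared by most matrix receptors) were the most abundant members in both libraries, and the differences between the libraries were spread over the groups in different directions. Groups follow textbook sites of expression, which these mixed libraries do not measure. As deposited, 8564 of the 12165 genes that passed 1 FPKM in either library were lower in ed/ed and 3601 higher. Among the stromal and muscle genes, 6 of 8 were lower in ed/ed under every scaling, led by Cdh11. As deposited that is near the share of all genes that were lower. Among the epithelial genes 4 of 6 were higher, led by Cdh1, with Itga3 changing sign under 2 of the 4 other scalings. Among the leukocyte genes 4 of 6 were higher, each by less than 2-fold, with Itgb2 changing sign under 3 scalings. These counts and the group medians below include genes that passed 1 FPKM in 1 library only, which fixed their direction. They are Cdh2, Itga8 and Itga10 (stromal and muscle), Itga2 (epithelial), and Itga4, Itgal and Itgax (leukocyte). The gene with the highest ratio was Cdh4 (R-cadherin), at 0.475 FPKM in f/f against 4.47 in ed/ed, which passed 1 FPKM in ed/ed alone.

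**Figure D1:**
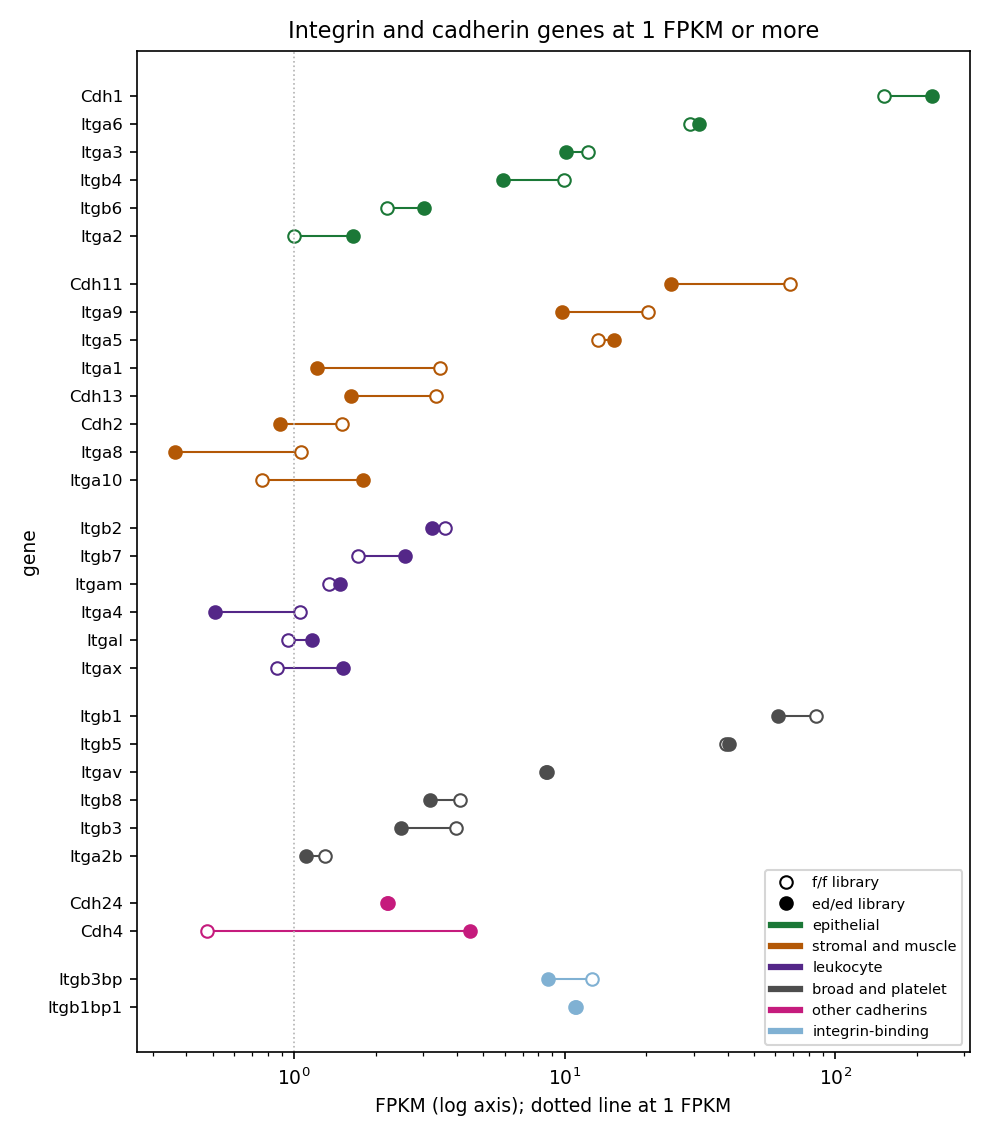
FPKM on a log axis of the 30 integrin and cadherin genes that passed 1 FPKM in a library, with open circles for the f/f library, filled circles for the ed/ed library and colours for the groups. The filled circle lies right of the open one for Cdh1 (151 and 228 FPKM) and left of it for Cdh11 (68.2 and 24.6 FPKM).

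Each difference is the log2 ratio of ed/ed to f/f after 1 FPKM was added to both values, a scale that understates differences of low genes, and a gene was called at 2-fold on that scale. Of the 30 members 1 was called higher (Cdh4) and 2 lower (Cdh11 and Itga1), that is 3.33% and 6.67%. Of the 12165 genes of the tables that passed the same limit, 2.68% were called higher and 6.22% lower, so the share of members called is near the background. The median log2 ratio of the 30 members was -0.06, against -0.26 over all genes, and 18 members lay above and 12 below the median of all genes. Of the 30, 8 passed 1 FPKM in a single library (Cdh2, Itga4 and Itga8 in f/f, and Cdh4, Itga2, Itga10, Itgal and Itgax in ed/ed), so these had to differ and their counts support nothing.

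The common scale of the libraries bears on every sign below. Scaling ed/ed by the sum, upper quartile, median ratio or reference genes shifted the median of all genes by 0.08, 0.20, 0.25 and 0.32 on the log2 scale. Removing the trend with transcript length also recentred all genes, by 0.26, so values given with that trend removed hold both changes. As deposited 326 of all genes were called higher and 757 lower, and with reference gene scaling 690 and 339. The median of the 30 members was 0.0029 to 0.21 under those scalings, so its sign depended on the scale. Estimated fragments per member ran from 53 to 11370 in f/f and from 36 to 16843 in ed/ed. The 95% counting interval of the FPKM ratio, which covers counting error only, lay above 1 for 9 members, below 1 for 13 and included 1 for 8. Those above 1 include Cdh4, Itga10, Itga2 and Itgax, and those below 1 include Cdh2, Itga4 and Itga8. The filter fixed the direction of these named genes. Such intervals were not counted over all genes, so the counts have no background beside them.

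**Figure D2:**
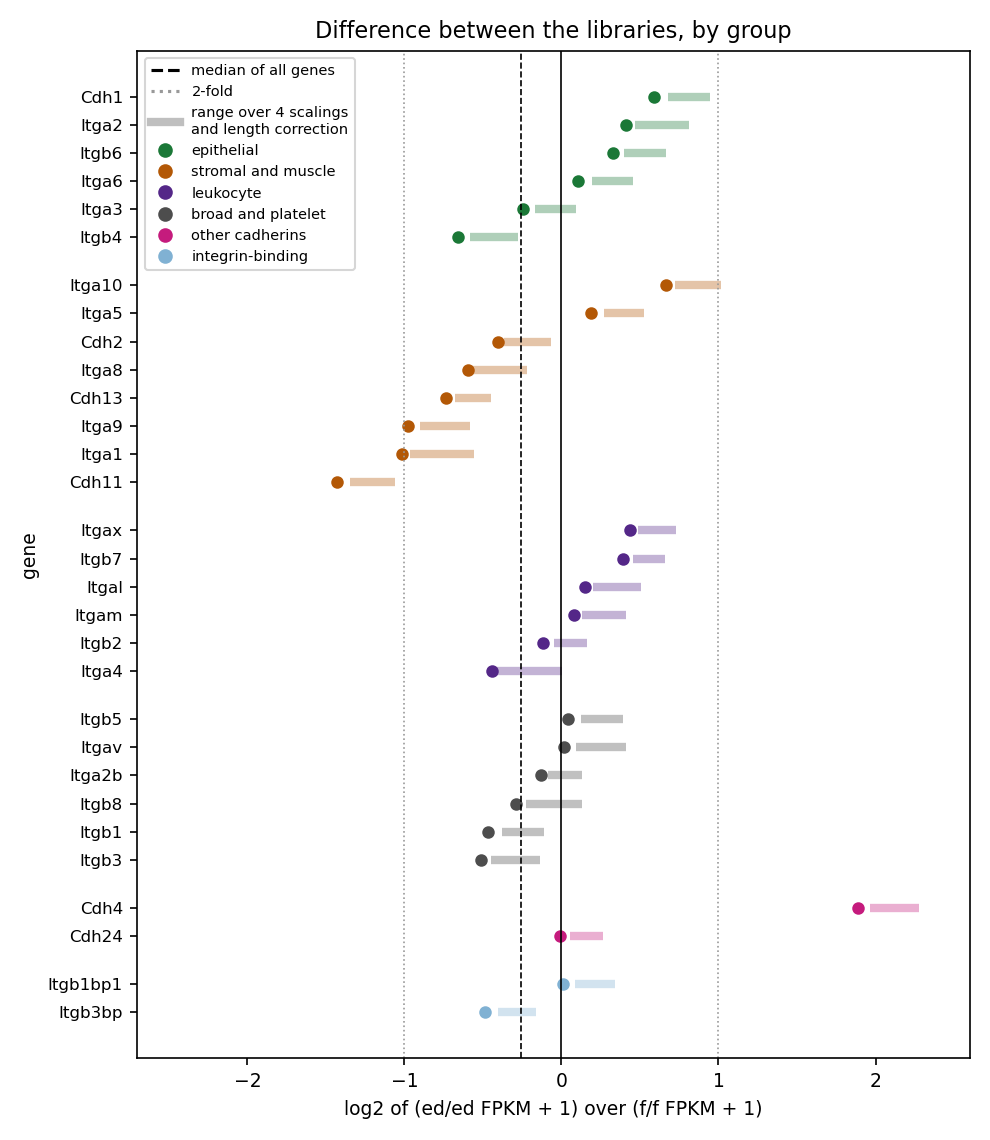
log2 ratio of each member between the libraries (points) with its range over 4 scalings and a length correction (bars), by group. Cdh4 at 1.89 and Cdh11 at -1.43 stay beyond 2-fold along the whole bar, whereas the bar of Itga1 lies inside 2-fold.

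The epithelial members differed from each other in direction. Cdh1, which joins epithelial cells at the adherens junction (ENSMUSG00000000303, GRCm38 chromosome 8, 106603351 to 106670246), had a level of 151 FPKM (f/f) against 228 FPKM (ed/ed). The ed/ed level was higher by a factor of 1.51 (counting interval 1.47 to 1.54), a log2 ratio of 0.59, and 0.68 to 0.95 under the other scalings and with the length trend removed. Cdh1 thus stood above the median of all genes by 0.85 but below the 2-fold rule. Relative to Epcam, another epithelial surface protein gene, Cdh1 was at a like level, with 1.15 FPKM of Cdh1 for each FPKM of Epcam in f/f against 1.17 in ed/ed. Relative to the sum of the 8 epithelial markers, which includes keratins that were lower in ed/ed, Cdh1 went from 0.0580 to 0.0894.

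The laminin-binding chains of the epithelial basement membrane differed from each other. Itga6, the alpha partner of Itgb4 in hemidesmosomes and of Itgb1 elsewhere, was at 29.1 and 31.4 FPKM in f/f and ed/ed. Itgb4, whose product links laminin to keratin filaments, was at 9.97 and 5.94 FPKM, a log2 ratio of -0.66. The 95% counting interval of the Itgb4 ratio was 0.539 to 0.658, and its sign was the same under all 4 scalings. Itga6 therefore stood at 2.92 times the level of Itgb4 in f/f and at 5.29 times in ed/ed, a comparison within each library that no scaling alters. Itga3, which pairs with Itgb1 as a laminin receptor, was at 12.2 and 10.2 FPKM, and its log2 ratio of -0.25 changed sign under 2 of the 4 scalings.

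The remaining epithelial members were low. Itgb6, an epithelial partner of the alpha V chain that can activate latent TGF-beta, was at 2.202 FPKM in f/f against 3.02 in ed/ed. Itga2, a collagen receptor chain, was at 0.995 and 1.66 FPKM. Both were higher in ed/ed by less than 2-fold, with log2 ratios of 0.33 and 0.41. Itga2 passed 1 FPKM in ed/ed alone, so it had to be higher. P-cadherin (Cdh3) was at 0.0569 and 0.139 FPKM and Cdh16 at 0.288 and listed at 0, while Cdh17 and Cdh26 were listed at 0 in both libraries. The median log2 ratio of the 6 compared epithelial members was 0.22 as deposited and 0.29 to 0.53 under the other scalings, with 0 called in either direction. With a filter at 5 FPKM, which leaves out Itgb6 and Itga2, that median was -0.07. Over the epithelial marker genes the median was 0.14.

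In the stromal and muscle group most members were lower in ed/ed. Cdh11, the cadherin of mesenchymal cells (chromosome 8, 102632095 to 102785642), had 68.2 FPKM (f/f) against 24.6 FPKM (ed/ed). It was 2.70-fold lower on the log2(FPKM + 1) scale, a log2 ratio of -1.43, and remained past 2-fold under all 4 scalings and with the length trend removed (-1.06). Among all members it was the only one called under each alternative run. Relative to Pdgfra, a receptor gene of fibroblasts that was also lower in ed/ed, Cdh11 went from 2.44 to 2.65, and relative to the sum of the 8 stromal markers from 0.0690 to 0.0508.

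Itga9 and Itga1 lay near the 2-fold rule. Itga9, a chain of a receptor for tenascin and osteopontin (chromosome 9, 118606690 to 118901003), had 20.2 FPKM (f/f) against 9.78 FPKM (ed/ed), with a log2 ratio of -0.98. Itga1, a collagen receptor chain of stroma and smooth muscle (chromosome 13, 114953096 to 115101964), was at 3.46 and 1.21 FPKM. Its log2 ratio of -1.01 passed 2-fold as deposited and under none of the 4 scalings (-0.96 at the lowest), and was -0.56 with the length trend removed. The counting intervals of the FPKM ratios were 0.3004 to 0.408 for Itga1 and 0.450 to 0.518 for Itga9. Itga9 tracked the stromal markers, at 0.0205 of their sum in f/f against 0.0202 in ed/ed. Itga1 was lower in ed/ed and smooth muscle markers were higher, and Itga1 went from 0.0103 to 0.00224 of the smooth muscle marker sum. Of the stromal marker sum, Itga1 went from 0.00350 to 0.00250.

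The other 5 members of this group differed from each other in direction. Cdh13, a cadherin without a cytoplasmic tail found on endothelium and smooth muscle, was at 3.36 and 1.62 FPKM in f/f and ed/ed, and against the endothelial markers it was at 0.0229 and 0.0275. Cdh2 (N-cadherin) was at 1.5001 and 0.888 FPKM, and Itga8, a chain of a receptor for nephronectin, at 1.06 and 0.364. Itga5, the alpha chain of the main fibronectin receptor, went the other way at 13.2 and 15.2 FPKM, with a counting interval of the ratio of 1.05 to 1.25. Itga5 therefore stood at 0.0134 of the stromal marker sum in f/f against 0.0313 in ed/ed. Itga10, a collagen receptor chain known from cartilage, was at 0.764 and 1.80 FPKM. Its log2 ratio of 0.67 reached 1.02 with the length trend removed. The median log2 ratio of these 8 members was -0.66 as deposited (-0.40 from the median of all genes) and -0.62 to -0.50 under the other scalings. It was -0.33 with the length trend removed, and -0.26 and -1.02 with pseudocounts of 5 and 0.1 FPKM.

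The leukocyte integrins were few and low. Itgb2, the beta chain common to the leukocyte receptors for ICAMs and complement, was at 3.60 FPKM in f/f against 3.25 in ed/ed, and its log2 ratio of -0.12 changed sign under 3 of the 4 scalings. Its 3 compared alpha partners had higher values in ed/ed, though Itgal and Itgax passed 1 FPKM in ed/ed alone, which fixed their direction. Itgam, the chain of the complement receptor on macrophages and neutrophils, was at 1.35 and 1.48 FPKM. Itgal, the chain of LFA-1 on lymphocytes, was at 0.953 and 1.17 FPKM. Itgax, the chain known from dendritic cells, was at 0.866 and 1.52 FPKM. The counting intervals of the Itgam and Itgal ratios included 1, and that of Itgax was 1.26 to 2.47. Itgad and Itgb2l, at 0.160 and 0.0382 and at 0.0668 and 0 FPKM, were below 1 FPKM in both libraries.

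Itgb2 was lower in ed/ed relative to each of the 6 general leukocyte markers, all of them higher in ed/ed as deposited. The counting interval of the Itgb2 ratio itself included 1, and the markers differed in size of difference. Lcp1 was at 14.2 FPKM in f/f against 15.4 in ed/ed, Cd53 at 3.55 and 3.87, Coro1a at 11.5 and 14.4, and Cd52 at 38.6 and 61.0. Relative to the sum of the leukocyte markers Itgb2 went from 0.0413 to 0.0199, with Laptm5 at 15.7 and 63.0 FPKM. For each FPKM of Ptprc (CD45) there was 0.986 FPKM of Itgb2 in f/f against 0.552 in ed/ed, since Ptprc was at 3.65 and 5.88 FPKM. Itgam went from 0.00956 to 0.00520 of the sum of macrophage markers, in which lysozyme (Lyz2) dominates. The chains Itgb7 and Itga4 of the lymphocyte integrins differed in direction as deposited. Itgb7, which pairs with Itga4 for homing to mucosa and with Itgae for binding E-cadherin, was at 1.72 FPKM in f/f against 2.57 in ed/ed, with a counting interval of the ratio of 1.11 to 2.05. Itga4 was at 1.05 and 0.508 FPKM, with an interval of the ratio of 0.372 to 0.632, and passed 1 FPKM in f/f alone. Removing the length trend, which also recentred all genes by 0.26, moved the log2 ratio of Itga4 from -0.44 to 0.0017. Itgb7 was then at 0.61, so that the opposite direction was lost. Itgae was at 0.482 and 0.260 FPKM, below 1 FPKM in both libraries. Itgb7 thus stood at 1.64 times Itga4 in f/f and at 5.06 times in ed/ed, on 75 and 111 estimated fragments of Itgb7. The 6 compared leukocyte members had a median log2 ratio of 0.11, and 0 were called. That median was 0.16 to 0.33 under the other scalings, 0.46 with the length trend removed and -0.093 with no filter, so its sign depended on the filter.

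Chains found on many cell types held most of the beta chain transcript. Itgb1 (chromosome 8, 128685654 to 128733200) had a level of 84.9 FPKM in f/f against 61.3 in ed/ed, a log2 ratio of -0.46. Its sign was the same under all 4 scalings, the nearest to 0 being -0.11. Itgb5, a partner of the alpha V chain in a vitronectin receptor, was at 39.4 and 40.6 FPKM, and Itgav itself at 8.53 and 8.62. Both counting intervals included 1, from 0.969 to 1.09 for Itgb5 and from 0.926 to 1.10 for Itgav. The alpha V partners Itgb3 and Itgb8 were lower in ed/ed under every scaling, at 3.96 and 2.48 and at 4.11 and 3.18 FPKM. With the length trend removed and all genes thereby recentred, Itgb8 had a log2 ratio of 0.13. Itga2b, the platelet chain that pairs with Itgb3, was at 1.30 and 1.10 FPKM, with an interval that included 1 and a sign that changed under 2 of the 4 scalings. The platelet markers differed in direction. Gp9 and Gp5 were listed at 0 in both libraries, Pf4 was at 3.52 and 5.87 FPKM, Ppbp at 0 and 0.425, and Gp1ba lower in ed/ed at 0.710 and 0.0391.

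Within each family the make-up could be compared without any scaling. Cdh1 made up 66.0% of the summed cadherin FPKM in f/f against 86.6% in ed/ed, and Cdh11 29.8% and 9.37%. Cdh1 was therefore at 2.21 times the level of Cdh11 in f/f and at 9.24 times in ed/ed. Among alpha chains Itga6 held the first place in both libraries, at 30.0% and 36.3% of the sum. Itga9 held 20.9% in f/f against 11.3% in ed/ed, and Itga5 13.7% and 17.6%. Among beta chains Itgb1 held 56.6% and 50.1% and Itgb5 26.3% and 33.2%. The order of the alpha chains by level was Itga6, Itga9, Itga5, Itga3 and Itgav in f/f and Itga6, Itga5, Itga3, Itga9 and Itgav in ed/ed. The summed alpha chains were at 96.9 FPKM in f/f against 86.6 in ed/ed, the beta chains at 150 and 122 and the cadherins at 229 and 263.

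**Figure D3:**
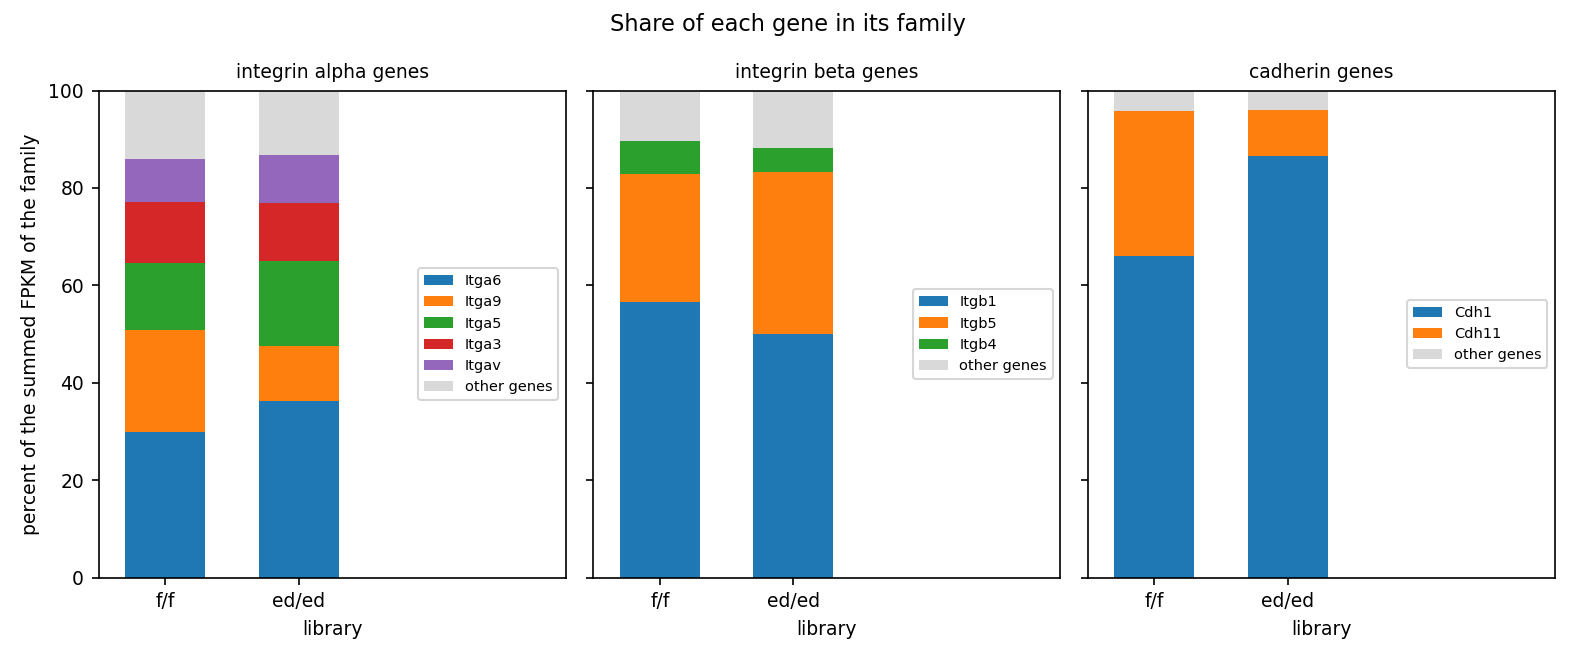
Percent of the summed FPKM of integrin alpha, integrin beta and cadherin genes held by each gene above 5% in either library, for the f/f and ed/ed libraries. Cdh1 takes 66.0% of the cadherin sum in f/f against 86.6% in ed/ed.

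Most of the 16 cadherin genes below 1 FPKM are known from neural or other tissues. Of the 22 members below 1 FPKM in both libraries, 8 were listed at 0 in both, all of them cadherin genes (Cdh7, Cdh8, Cdh9, Cdh12, Cdh15, Cdh17, Cdh18 and Cdh26). Cdh23, a cadherin of hair cell tip links, was listed at 0 in f/f and at 0.364 FPKM in ed/ed. Cdh10 was at 0.980 and 0.258 FPKM and the muscle laminin receptor chain Itga7 at 0.908 and 0.305, just under the limit, where Itga4 and Itga8 lay just over it.

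Cdh4 (ENSMUSG00000000305, chromosome 2, 179442431 to 179899373), a classical cadherin best known from retina and brain, had an estimated 53 fragments in f/f against 486 in ed/ed. It passed 1 FPKM in ed/ed alone, so the filter fixed its direction. The FPKM ratio was 9.41 with a counting interval of 7.02 to 12.6. On the log2(FPKM + 1) scale Cdh4 was 3.71-fold higher, and the log2 ratio was 1.96 to 2.28 under the other scalings and with the length trend removed. With a pseudocount of 5 FPKM the log2 ratio of Cdh4 was 0.79, short of the 2-fold rule, and a filter at 5 FPKM left it out. Even in ed/ed Cdh4 held far less transcript than Cdh1. Cdh24, the other compared member of that group, was at 2.23 and 2.21 FPKM, a log2 ratio of -0.01 that changed sign under all 4 other scalings.

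The genes of integrin-binding proteins are given apart. Itgb1bp1, whose product binds the tail of Itgb1 and restrains it, was at 10.9 FPKM in f/f against 11.002 in ed/ed. Itgb3bp, which also encodes a centromere protein, was at 12.6 and 8.70. Both have exons that overlap those of another coding gene on the opposite strand (Asap2 and Cpsf3 for Itgb1bp1, Pgm1 for Itgb3bp), as has Itga4 (Cerkl). Itga1, Itga10 and Itgam overlap predicted coding models on their own strand. No source used here says whether strand was kept, so reads of such overlapping genes cannot be told apart.

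The partners of integrins and cadherins inside and outside the cell were taken from lists of textbook genes. Of 20 expressed integrin ligand genes, 7 were called lower in ed/ed and 0 higher, and their median log2 ratio was -0.93. Under the other scalings 5 to 7 were called lower and 0 to 1 higher, and with the length trend removed 2 were called lower. Thrombospondin 1 (Thbs1) was at 46.5 FPKM in f/f against 14.6 in ed/ed, fibronectin (Fn1) at 59.4 and 19.4, and the laminin chains Lama2 and Lama4 at 6.65 and 1.99 and at 6.72 and 2.07. Beside the lower Fn1, its receptor chain gene Itga5 was at 13.2 and 15.2 FPKM. Beside Lama2 and Lama4, the laminin receptor chain gene Itga6 was at 29.1 and 31.4 FPKM. Other receptor chain genes were lower as deposited, with Itgb4 at 9.97 and 5.94 FPKM and Itga3 at 12.2 and 10.2. Itgb1, the beta chain shared by most matrix receptors, was also lower, at 84.9 and 61.3 FPKM. Other laminin chains differed from Lama2 and Lama4, with Lama3 at 13.2 and 9.10 FPKM and Lama5 higher, at 10.9 and 15.6. Of the 20 ligand genes 2 were above a log2 ratio of 0, Lama5 and Spp1 (osteopontin, 10.6 and 17.7 FPKM). The part of the lower stromal and endothelial markers in these ligand values was not tested.

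Of 27 integrin adaptor genes 1 was called lower, 0 were called higher, and the median of -0.28 was near that of all genes (0.07 with reference gene scaling). Parvb, a parvin that links integrins to actin, was at 7.63 FPKM in f/f against 1.92 in ed/ed. Vcl (vinculin) was at 26.5 and 13.7 FPKM and Zyx (zyxin) at 67.4 and 40.0. The adaptor gene Bcar1 (p130Cas) was higher, at 20.3 and 41.1 FPKM, with a log2 ratio of 0.98 that passed 2-fold under each of the 4 other scalings and with the length trend removed.

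Of 15 catenin and cadherin regulator genes, 1 was called lower and 0 higher, with a median of -0.15 that turned positive under 3 of the 4 other scalings. Arvcf, a catenin of the p120 family that binds the inner tail of classical cadherins, was at 85.8 FPKM in f/f against 16.4 in ed/ed, 4.99-fold lower. Jup (plakoglobin) was at 43.4 and 22.4 FPKM, Nectin2 at 64.7 and 117, and Nectin1 at 1.18 and 2.63. The lower Arvcf and Jup thus stood beside a higher Cdh1, to whose product theirs bind. Other catenin genes of the list differed less. Ctnnb1 was at 302 FPKM in f/f against 220 in ed/ed, Ctnna1 at 105 and 93.7, and Ctnnd1 at 45.7 and 46.3. Of 5 desmosomal genes compared 0 were called, with desmoplakin (Dsp) at 16.0 and 8.51 FPKM, Dsc2 at 1.02 and 2.51, Dsg2 at 11.3 and 8.91, and Pkp3 at 9.91 and 11.8. The median of the desmosomal list was 0.15.

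Transcription factors known to repress or maintain Cdh1 had 0 of 9 genes called as deposited and a median of -0.41. Among the repressors, Zeb2 was at 7.29 FPKM in f/f against 3.94 in ed/ed, Twist2 at 40.3 and 23.7 and Snai1 at 19.8 and 12.5. The repressor gene Twist1 was nearly level, at 5.08 and 4.98 FPKM. The epithelial factor genes differed in direction. Ovol2 was at 4.07 and 7.47 FPKM and Ovol1 at 4.66 and 5.74, whereas Grhl2 was lower, at 21.2 and 15.7. Under the other scalings 0 to 2 catenin list genes, 0 to 1 desmosomal genes and 0 to 1 of these transcription factor genes were called higher. The lists are described by their counts and medians, beside the 2.68% and 6.22% of all genes called.

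**Figure D4:**
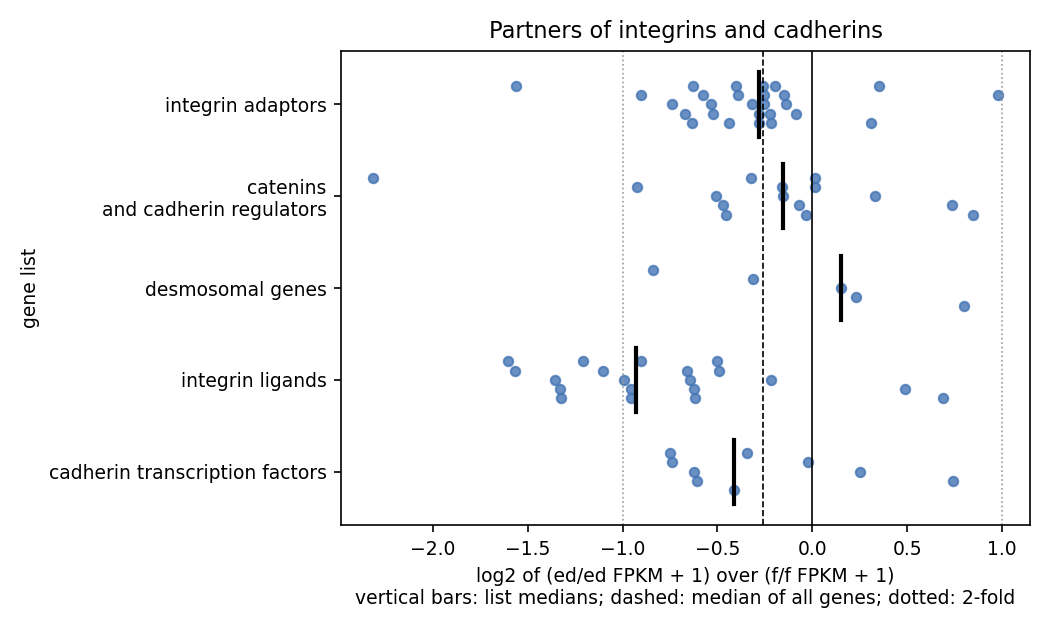
log2 ratio of each expressed gene in 5 lists of partners (points) with the list median (vertical bar) and the median of all genes (dashed line at -0.26). The integrin ligand genes have the lowest median, -0.93, and Arvcf is the leftmost point of the catenin list at -2.32.

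The pentamer GGACT, a sequence that the m6A writer prefers, was counted in the longest coding transcript of each gene. The 30 members had a median of 1.14 matches per kilobase, against 1.05 over 12111 genes. Cdh11 had 0.885 matches per kilobase, Cdh1 1.35, Itga1 1.19, Cdh4 0.939 and Itgb1 0.524. The lowest count was that of Itgb1 and the highest that of Itgb2 at 2.69, and neither was called. No m6A was measured in these libraries, so these counts describe the transcripts only.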

How the data were processed

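RNA-seq libraries were made from total RNA (TRIzol) of whole uterus with an Illumina TruSeq kit, 1 per genotype, per the labels' protocols. The deposited tables give 1 value per gene, which the authors deposited and which is read here as FPKM. The submitters' processing notes list HISAT2 2.2.1 (an aligner) and Cufflinks 2.2.1 (a quantifier). The header names no unit: FPKM is inferred from Cufflinks and the values. The notes name the builds mm9 and mm10 without a role. Annotation and multi-read handling are not stated.

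Genes were compared with a pseudocount of 1 FPKM, a filter at 1 FPKM in either library and a 2-fold rule of size. Coordinates, lengths and overlaps came from GENCODE M21 (GRCm38), which held 20557 of the identifiers, and locate genes, not reads. Low values of genes with 1 transcript over 1000 nt, times the length less 250 nt, gave the value of 1 fragment (0.0555 in f/f and 0.0565 in ed/ed), an estimate that rests on that offset. Ratio intervals are exact conditional binomial intervals on these estimated fragments. Length was removed by subtracting a lowess fit (fraction 0.3) together with its level, which brought the median of all genes to -0.0025. The spacing and lowess steps were tested on simulated data. Python 3.11.15, pandas 2.3.3, scipy 1.17.1 and statsmodels 0.14.6 were used.

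Every member at 1 FPKM or more is named, and up to 4 genes with the largest absolute log2 ratio from each partner list. Any other gene was chosen after its values were seen. The members and lists were chosen with earlier results of these data known. Alternatives were other pseudocounts, filters, a 1.5-fold rule, 4 scalings of ed/ed and the length correction.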

Additional observations from a re-analysis of the deposited data

How the results depend on the processing

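As reported, the 2-fold rule called 1 member higher and 2 lower in ed/ed, and the median log2 ratio was -0.06. A pseudocount of 0.1 FPKM gave 2 higher, 5 lower and a median of -0.077, whereas 5 FPKM gave 0, 1 and -0.025. The 5 lower genes were Cdh11, Cdh13, Itga1, Itga8 and Itga9, and the 2 higher Cdh4 and Itga10. With no filter the counts were the same and the median -0.10, and with a filter at 5 FPKM they were 0, 1 and -0.12 over 12 members. Of all genes, 2.15% were called higher and 4.98% lower with no filter, and 2.40% and 6.20% with the filter at 5 FPKM. Scaling by the sum, the upper quartile, the median ratio and the reference genes gave 1 lower member (Cdh11) each and medians of 0.0029, 0.11, 0.15 and 0.21. Under these scalings 3.17% to 5.61% of all genes were called higher and 2.76% to 4.99% lower. Removing the length trend gave 2 higher, 1 lower and a median of 0.16, beside 4.31% and 2.84% of all genes. That step also recentred all genes, from a median of -0.26 to -0.0025. A 1.5-fold rule gave 3 higher and 6 lower, beside 7.04% and 23.4% of all genes. Without the genes of integrin-binding proteins, a choice made after seeing the data, the counts and the median were the same. Of 210 values of single members under alternatives, 140 moved by less than the half-width of their counting interval and 70 by more. No called member changed sign, but these began past 2-fold. Of the members not called, Cdh24, Itga3, Itga2b and Itgb2 changed sign under at least 1 scaling, and Itga4 and Itgb8 with the length trend removed. The cause of these shifts was not tested. No paired analysis was possible because each genotype has 1 library, and the spread between animals is unknown.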
